A study of Mus musculus with 9 samples.

Results

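The C-type lectin receptors examined here were 10 genes, found in the deposited counts by gene symbol: *Clec7a*, *Clec4n*, *Clec4d*, *Clec4e*, *Clec5a*, *Clec4a2*, *Clec12a*, *Mrc1*, *Cd209a* and *Clec10a*. They are 10 of the 55471 genes counted, and 9 of the 10 had enough counts to be tested. RNA came from bone marrow-derived dendritic cells (DCs) of WT mice, which the study describes as female C57BL/6 animals of 8 to 20 weeks, grown with GM-CSF. The cells were left unstimulated, activated with LPS, a bacterial membrane component, at 100 ng/mL, or treated with IFN-β, a type I interferon, at 1000 U/mL, and all were collected after 6 h. Each condition had 3 libraries, lettered A, B and C. Nothing in the sources used here says that the letters mark separate mice or cultures, so p-values measure the spread between these libraries, which may be technical.

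C-type lectin receptors are cell surface proteins of myeloid cells that bind sugars and other ligands of fungi, bacteria and damaged cells. Dectin-1 (*Clec7a*) signals through its own cytoplasmic motif, and Dectin-2 (*Clec4n*), MCL (*Clec4d*), Mincle (*Clec4e*) and MDL-1 (*Clec5a*) signal through adaptor chains, in both cases by way of the kinase SYK. DCIR (*Clec4a2*) and *Clec12a* carry inhibitory motifs, and the mannose receptor (*Mrc1*), *Cd209a* and *Clec10a* are best known for taking up glycosylated ligands.

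The libraries held 33425803 to 43735199 counts on genes. TMM factors, which scale library size for composition, were 1.18 to 1.26 in unstimulated, 0.783 to 0.841 in LPS-activated and 0.977 to 1.02 in IFN-β-treated DCs, and levels are given in CPM, the counts of a gene relative to this scaled library size. A gene was called changed at an adjusted p-value under 0.05, and 16260 genes were tested. All 7 DC markers listed, such as *Itgax* and *Cd74*, and all 7 macrophage and monocyte markers were above 1 CPM in a condition. In unstimulated DCs the DC markers ran from *Flt3* (3.06 CPM), *Dpp4* (10.0 CPM) and *Zbtb46* (32.5 CPM) to *Cd74* (2537 CPM). The macrophage and monocyte markers ran from *Ly6c2* (96.3 CPM) to *Csf1r* (1101 CPM) there. Lists for mast cells, B cells, T and NK cells and erythroid cells held no gene at 1 CPM, and *Mcpt4* and *Hbb-bs* were at 0 counts. Of 9 neutrophil markers 6 reached 1 CPM in at least 1 library. *Mmp8* had 236 to 460 CPM and *S100a8* 6.48 to 15.2 CPM over all libraries. *Camp*, *Ltf*, *Ngp* and *S100a9* stayed at or under 6.06 CPM, and *Ly6g*, *Mpo* and *Elane* at or under 0.266 CPM, in every library. Of 3 plasmacytoid DC markers, *Tcf4* and *Ccr9* reached 1 CPM, and *Siglech* had at most 0.0253 CPM. Genes known to respond to the stimuli were looked at as a check on the labels. *Il12b* had 3.41 CPM in unstimulated, 3615 CPM in LPS-activated and 4.28 CPM in IFN-β-treated DCs, and *Mx1* had 129 CPM, 2578 CPM and 1355 CPM.

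LPS changed 7 of the 9 tested receptors, 2 upward and 5 downward. Across all tested genes 68.2% were called with LPS, 32.8% as higher and 35.4% as lower, so the share of receptors called was close to the background. IFN-β changed 4 of the 9, 2 in each direction, against 46.9% of all tested genes (23.6% higher and 23.3% lower). Both stimuli were compared with the same 3 unstimulated libraries. In the direct comparison of the stimuli, 8 of the 9 receptors differed, 6 being higher and 2 lower with IFN-β, against 49.1% of all genes (25.8% higher and 23.3% lower). The median log2 fold change of the 9 receptors was -0.56 with LPS, where that of all tested genes was -0.04, and 0.24 with IFN-β, where that of all was -0.02. These are bulk measurements, in which fewer cells of a type and less RNA per cell cannot be told apart.

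**Figure D1:**
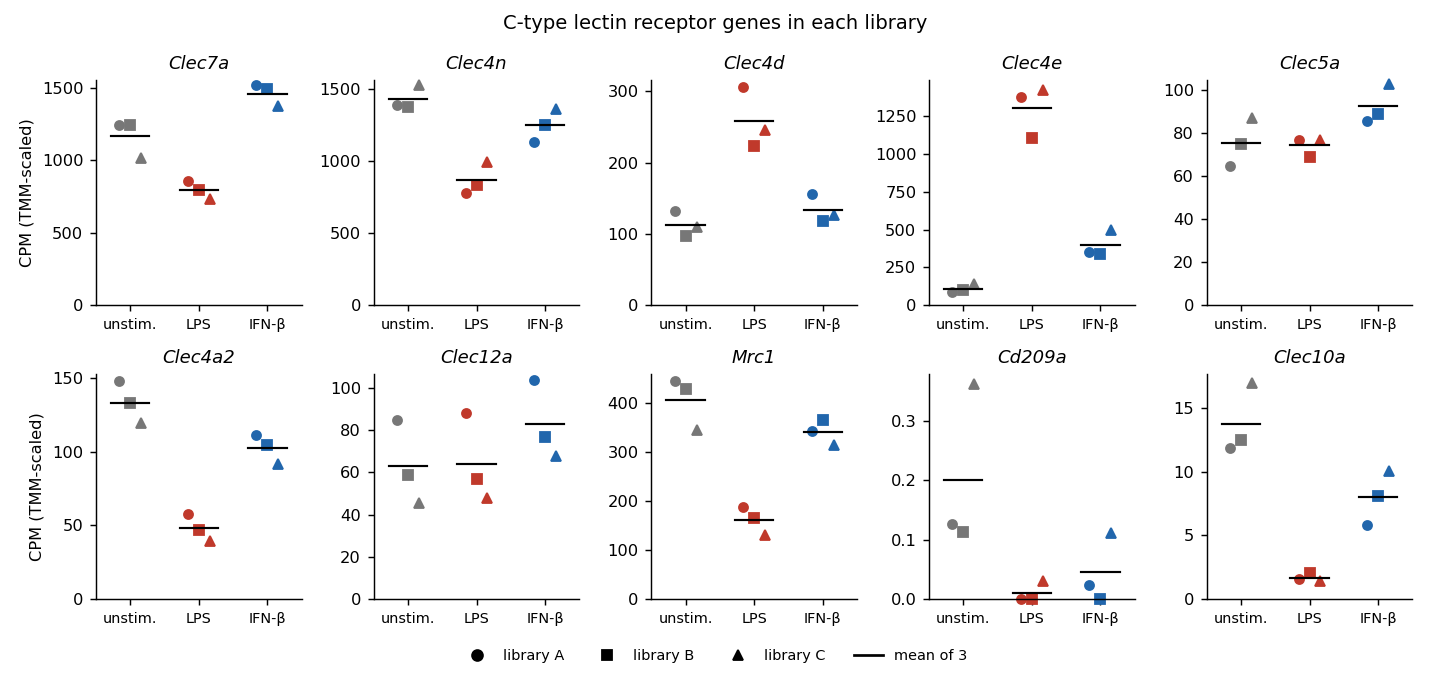
Level of each receptor gene in CPM after TMM scaling (vertical axes from 0, different for each gene) in the 3 libraries of each condition, with the letter as the symbol and the mean as a bar. *Clec4e* rose from 89.8 to 141 CPM in unstimulated DCs to 1109 to 1425 CPM with LPS, while *Clec12a* follows the letters, with library A highest in each condition.

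Mincle (*Clec4e*), which binds mycobacterial glycolipids and a protein released from dead cells, had the largest change of the 9 tested receptors. In libraries A, B and C of unstimulated DCs its level was 89.8, 100 and 141 CPM. With LPS it was 1379, 1109 and 1425 CPM, and with IFN-β 352, 342 and 497 CPM. The 3 conditions did not overlap, with IFN-β between the other 2. The rise with LPS was 11.8-fold (log2 fold change 3.56 ± 0.21 SE, edgeR quasi-likelihood test with Benjamini-Hochberg adjustment, adjusted p = 1.06e-07). With IFN-β it was 3.60-fold (1.85 ± 0.19 SE, adjusted p = 3.54e-05 by the same edgeR test). IFN-β gave a level 3.29-fold lower than LPS did (adjusted p = 3.62e-05, edgeR). *Clec4e* lies on chromosome 6 of GRCm38 at 123281789 to 123289870 on the minus strand.

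MCL (*Clec4d*), which pairs with Mincle and binds the same mycobacterial glycolipid, lies 6.52 kb away at 123262111 to 123275265 on the plus strand, so that the ends of the 2 genes face each other. Its values were 132, 97.2 and 109 CPM in unstimulated DCs, 306, 223 and 246 CPM with LPS, and 156, 118 and 127 CPM with IFN-β. LPS libraries were all above the others, and the IFN-β range overlapped the unstimulated range. LPS raised *Clec4d* 2.29-fold (log2 fold change 1.19 ± 0.15 SE, adjusted p = 3.50e-05, edgeR). The IFN-β difference was 0.24 on the log2 scale (95% confidence interval -0.08 to 0.57, adjusted p = 0.204, edgeR), passed the test when the library letter was a block (0.24, adjusted p = 0.00131), and was -0.06 when only library size was used for scaling. IFN-β and LPS differed by -0.95 (adjusted p = 0.000374, edgeR).

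The ratio of *Clec4e* to *Clec4d*, each per kilobase of exon, was 0.219, 0.332 and 0.414 in libraries A, B and C of unstimulated DCs. It was 1.45, 1.60 and 1.87 with LPS and 0.729, 0.934 and 1.26 with IFN-β. *Clec4d* had the higher level per kilobase in all unstimulated libraries and *Clec4e* in all LPS libraries, and in IFN-β-treated DCs only library C had more *Clec4e*.

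The promoters of both genes, and that of *Clec4a2*, which fell with LPS, are printed from 250 bases before to 50 bases after the RefSeq start (GRCm38.p6), read along the strand of the gene. They are shown because these genes, neighbours on chromosome 6, differed in direction. Capitals mark every match to one of 5 motifs searched on both strands: the NF-κB motif (GGGA, then NN, then TTCC), the interferon-stimulated response element (GAAA, then NN, then GAAA), the C/EBP motif TTGCNNAA, the AP-1 motif TGANTCA and the PU.1 motif GAGGAAG, where N is any base. The regions are chr6:123289822-123290121 (minus strand) for *Clec4e*, chr6:123261857-123262156 (plus strand) for *Clec4d* and chr6:123122440-123122739 (plus strand) for *Clec4a2*, whose RefSeq start lies within the longer gene annotated by GENCODE.
Clec4e: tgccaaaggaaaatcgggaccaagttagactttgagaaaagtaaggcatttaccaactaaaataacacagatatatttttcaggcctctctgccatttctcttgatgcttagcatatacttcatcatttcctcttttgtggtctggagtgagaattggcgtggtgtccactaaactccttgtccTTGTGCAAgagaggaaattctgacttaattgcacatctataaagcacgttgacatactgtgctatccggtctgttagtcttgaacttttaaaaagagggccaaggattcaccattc
Clec4d: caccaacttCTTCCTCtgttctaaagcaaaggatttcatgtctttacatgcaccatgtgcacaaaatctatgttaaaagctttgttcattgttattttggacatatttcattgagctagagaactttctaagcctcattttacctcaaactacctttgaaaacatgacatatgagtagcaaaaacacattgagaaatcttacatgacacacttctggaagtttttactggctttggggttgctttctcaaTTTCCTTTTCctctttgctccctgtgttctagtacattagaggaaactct
Clec4a2: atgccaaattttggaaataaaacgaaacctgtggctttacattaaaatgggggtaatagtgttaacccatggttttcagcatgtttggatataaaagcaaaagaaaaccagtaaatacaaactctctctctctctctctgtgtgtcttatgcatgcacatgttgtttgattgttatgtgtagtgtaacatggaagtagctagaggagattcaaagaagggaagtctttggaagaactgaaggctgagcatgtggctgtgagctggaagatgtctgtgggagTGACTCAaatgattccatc
The *Clec4e* window held a C/EBP match from 66 to 59 bases before the start. The *Clec4d* window held an interferon-stimulated response element match over bases 0 to 9 from the start, on the opposite strand, and a PU.1 match 241 bases before it. The *Clec4a2* window held an AP-1 match 31 to 37 bases after the start. Among 32851 promoters of the same length the shares holding each motif were 10.8% for C/EBP, 3.44% for the interferon-stimulated response element, 13.6% for PU.1, 7.81% for AP-1 and 1.47% for NF-κB. Of the 10 receptors 8 had a promoter in the table, and the NF-κB letters were in none of these windows. *Mrc1* and *Clec5a* held PU.1 matches, *Clec12a* one each of C/EBP, AP-1 and PU.1, and *Clec7a* and *Cd209a* no match. A match describes letters in the window and was not tested as a binding site.

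Dectin-1 (*Clec7a*), the receptor for fungal β-glucan, was the only tested receptor called in opposite directions by the 2 stimuli. Its level was 1240, 1240 and 1014 CPM in unstimulated DCs, 854, 792 and 729 CPM with LPS, and 1515, 1491 and 1370 CPM with IFN-β. No condition overlapped another. *Clec7a* was 1.47-fold lower with LPS (log2 fold change -0.56 ± 0.10 SE, adjusted p = 0.000617, edgeR). It was 1.25-fold higher with IFN-β (0.32 ± 0.10 SE, adjusted p = 0.0240, edgeR), a value that became 0.02 and was not called with scaling by library size only. That call was lost when IFN-β library A, IFN-β library B or unstimulated library C was left out (adjusted p = 0.0756, 0.0660 and 0.0760, edgeR). The difference between IFN-β and LPS was 0.88 (adjusted p = 4.83e-05, edgeR). GENCODE M21 places *Clec7a* at 129461591 to 129472779 of chromosome 6 (minus strand) and types it as a polymorphic pseudogene.

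Dectin-2 (*Clec4n*), which binds fungal mannans, had the highest level per kilobase of the receptors in all 3 conditions. It had 1384, 1373 and 1524 CPM in unstimulated, 779, 829 and 991 CPM in LPS-activated and 1132, 1248 and 1359 CPM in IFN-β-treated DCs. The conditions did not overlap. LPS lowered *Clec4n* 1.65-fold (log2 fold change -0.72 ± 0.11 SE, adjusted p = 0.000156, edgeR). The IFN-β value of -0.20 (95% confidence interval -0.44 to 0.05) did not pass the test (adjusted p = 0.170, edgeR) and did with the letter as a block (adjusted p = 0.0222). *Clec4n* lies 15.1 kb from *Clec4d*, whose transcript moved the other way with LPS.

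MDL-1 (*Clec5a*), a receptor that signals through DAP12, had 64.5, 75.0 and 87.0 CPM in unstimulated DCs. Its values were 76.7, 68.8 and 76.8 CPM with LPS and 85.3, 88.8 and 103 CPM with IFN-β. LPS values lay inside the unstimulated range, and only IFN-β library A was below the highest unstimulated library. The LPS difference was -0.03 on the log2 scale, with a 95% confidence interval of -0.27 to 0.22 (adjusted p = 0.837, edgeR), and was -0.62 and called with scaling by library size only. With IFN-β it was 0.29 (adjusted p = 0.0513, edgeR), called with the letter as a block (0.29, adjusted p = 0.00324) and -0.02 under library size scaling. *Clec5a* was higher with IFN-β than with LPS by 0.32 (adjusted p = 0.0346, edgeR). This call was lost without IFN-β library B or C or without any single LPS library (adjusted p of 0.0563 to 0.130).

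**Figure D2:**
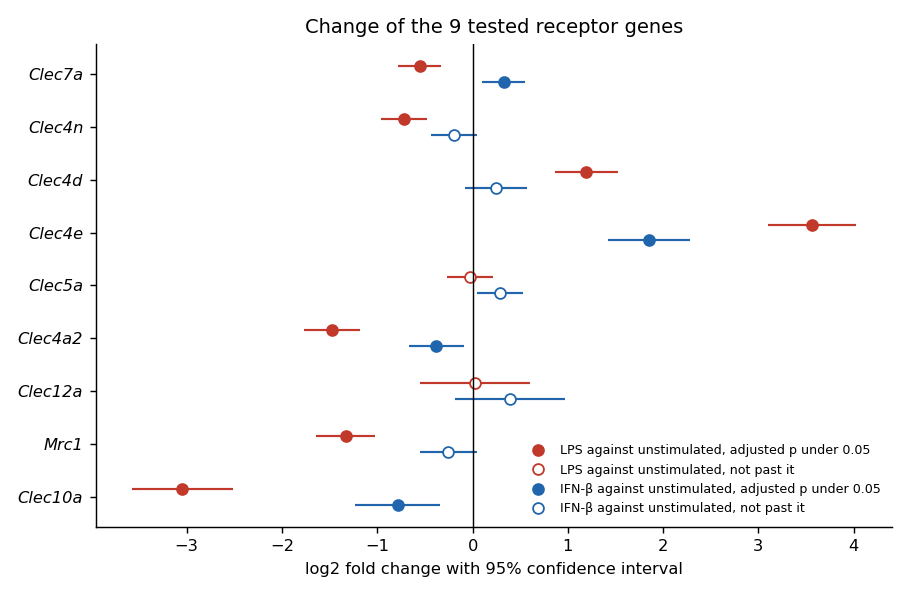
Log2 fold change against unstimulated DCs with its 95% confidence interval (horizontal axis) for the 9 tested receptors, in red for LPS and blue for IFN-β. Filled points passed an adjusted p of 0.05 in edgeR and open points did not; *Clec4e* is at 3.56 and 1.85, and *Clec7a* lies on opposite sides of 0.

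Of the inhibitory receptors, DCIR (*Clec4a2*) fell with both stimuli. It was at 148, 133 and 119 CPM in unstimulated DCs, 57.6, 47.0 and 39.6 CPM with LPS, and 112, 104 and 91.6 CPM with IFN-β. The ranges were separate. LPS lowered it 2.78-fold (log2 fold change -1.48 ± 0.13 SE, adjusted p = 2.99e-06, edgeR). The fall with IFN-β was 1.30-fold (-0.38 ± 0.13 SE, adjusted p = 0.0349, edgeR). That IFN-β call was lost without unstimulated library A or B or IFN-β library B or C (adjusted p of 0.0741 to 0.124). In the annotated transcripts, 8.19% of the 50-base words of *Clec4a2* also occur in another gene, most of them in *Clec4a4*. How reads from these stretches were counted was not tested.

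*Clec12a*, an inhibitory receptor for uric acid crystals, had 84.6, 58.9 and 45.5 CPM in unstimulated, 87.9, 56.9 and 47.7 CPM in LPS-activated and 104, 76.7 and 67.7 CPM in IFN-β-treated libraries A, B and C. Library A was highest and C lowest in each condition, and the conditions overlapped. The LPS difference was 0.03 (95% confidence interval -0.56 to 0.61, adjusted p = 0.938, edgeR), and was -0.07 with upper-quartile scaling and -0.56 and called with library size scaling. The IFN-β difference was 0.39 (95% confidence interval -0.19 to 0.97, adjusted p = 0.244, edgeR). With the letter as a block it was 0.41 ± 0.06 SE (adjusted p = 6.27e-05, edgeR), and within letters A, B and C the log2 ratios were 0.29, 0.38 and 0.57. IFN-β against LPS gave 0.37 (adjusted p = 0.272, edgeR) and 0.39 with the block (adjusted p = 0.000102).

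The order of the letters differed among the receptors. On the log2 scale *Clec12a* in library A was 0.47, 0.50 and 0.35 above the mean of its condition in unstimulated, LPS-activated and IFN-β-treated DCs. *Clec4d* was also above the mean in library A of each condition, by 0.24, 0.26 and 0.23. *Clec4n*, *Clec4e* and *Clec5a* were above the mean in library C of each condition, whereas *Clec7a*, *Mrc1* and *Clec4a2* were below it there. Markers of DCs and of other myeloid cells varied with the letter too. The summed list of 7 macrophage and monocyte markers was highest in library A of each condition, at 2558, 2091 and 2024 CPM in unstimulated libraries A to C, 3043, 2452 and 2353 CPM with LPS and 3289.7, 2859.9 and 2996 CPM with IFN-β. In that list *Adgre1*, *Cd68* and *Itgam* had the order of *Clec12a*, A above B above C, in each condition. *Csf1r*, *Mertk*, *Fcgr1* and *Ly6c2* broke that order in at least 1 condition. Of the DC markers, *Flt3* also ran A above B above C in each condition. *Cd74*, *H2-Ab1* and *Dpp4* were highest in library A of each condition, and *Itgax*, *Zbtb46* and *Ccr7* were not. The summed neutrophil list was 369 to 483 CPM in unstimulated, 249 to 327 CPM in LPS-activated and 337 to 433 CPM in IFN-β-treated DCs, most of it *Mmp8*, and was highest in library A and lowest in library B of each condition. The part of other cells in these letter differences was not tested.

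With the letter as a block, all 9 tested receptors passed the test for IFN-β, 5 higher and 4 lower, where 56.3% of all tested genes did, 27.9% as higher and 28.4% as lower. With LPS the block left the count at 7, where 73.5% of all genes passed (35.4% higher and 38.1% lower). For IFN-β against LPS it was 9, with 7 higher and 2 lower, where 58.0% of all genes passed (30.3% higher and 27.6% lower). Each of the 9 had a log2 ratio of IFN-β to unstimulated of the same sign in all 3 letters. How many of all tested genes did so was not counted, so this is not a trait of the receptors. Without the block, the conditions were separate for 7 of the 9 with LPS, 5 with IFN-β and 8 between the stimuli, against 72.4%, 58.1% and 56.8% of all tested genes. For such receptors the exact permutation test over 3 against 3 libraries gives p = 0.1, the smallest it can give.

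**Figure D3:**
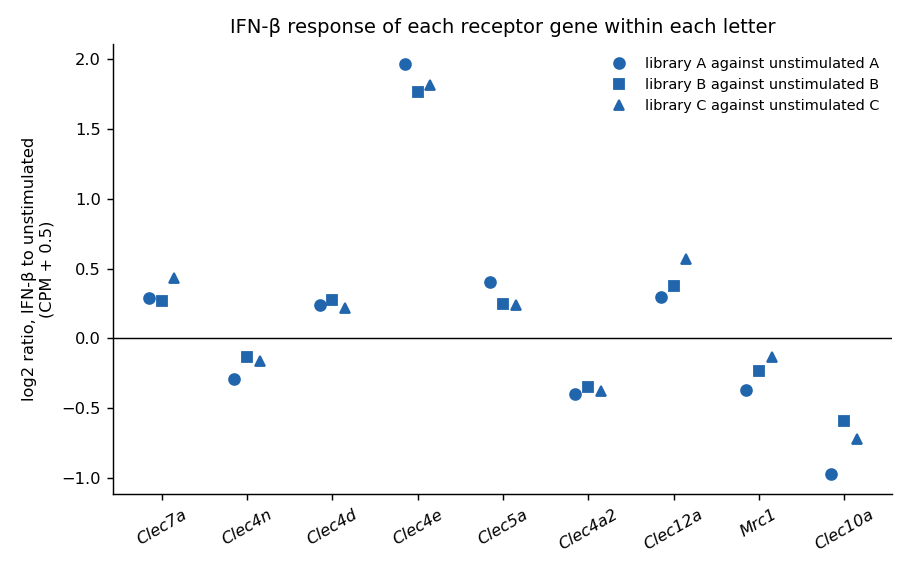
Log2 ratio of IFN-β-treated to unstimulated DCs within each letter, from CPM plus 0.5 (vertical axis), for the 9 tested receptors, 1 symbol per letter. The 3 ratios of each gene lie on the same side of 0, and those of *Clec12a* run from 0.29 to 0.57.

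The mannose receptor (*Mrc1*), which takes up mannosylated ligands for degradation, had 445, 430 and 346 CPM in unstimulated DCs. It had 189, 166 and 131 CPM with LPS and 344, 365 and 315 CPM with IFN-β. LPS libraries were all below the rest, and the IFN-β libraries overlapped the unstimulated ones. LPS lowered *Mrc1* 2.52-fold (log2 fold change -1.33 ± 0.14 SE, adjusted p = 8.06e-06, edgeR). The IFN-β difference was -0.25 (95% confidence interval -0.55 to 0.05, adjusted p = 0.151, edgeR) and was called with the letter as a block (adjusted p = 0.010). *Mrc1* lies on chromosome 2 at 14229392 to 14332057 (plus strand).

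*Clec10a*, a receptor for galactose and N-acetylgalactosamine, had the largest fall of the 9 tested receptors. Its level was 11.9, 12.5 and 17.0 CPM in unstimulated DCs, 1.59, 2.01 and 1.38 CPM with LPS, and 5.81, 8.13 and 10.1 CPM with IFN-β. The conditions were separate, with IFN-β in the middle. The fall was 8.26-fold with LPS (log2 fold change -3.05 ± 0.24 SE, adjusted p = 9.25e-07, edgeR) and 1.73-fold with IFN-β (-0.79 ± 0.20 SE, adjusted p = 0.00845, edgeR). It was 4.78-fold higher with IFN-β than with LPS (adjusted p = 2.49e-05, edgeR). *Clec10a* is on chromosome 11 at 70156197 to 70170834 (plus strand), and 10.6% of its 50-base words are shared with its paralog *Mgl2*, which also fell with LPS (-1.17, adjusted p = 0.00348, edgeR).

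*Cd209a*, a mouse relative of human DC-SIGN on chromosome 8, was close to undetected and was not tested. It had 5, 5 and 16 counts in unstimulated, 0, 0 and 1 count in LPS-activated and 1, 0 and 4 counts in IFN-β-treated libraries. In CPM the unstimulated libraries were all above the others, but the lowest (B, 0.112) barely exceeded IFN-β library C (0.110). The summed rate with LPS was 0.0519 of the unstimulated rate (1 against 26 counts, exact 95% interval 0.00127 to 0.316) and that with IFN-β was 0.212 of it (5 against 26 counts, 0.0635 to 0.560), intervals that cover counting error only. A count of 3 corresponds to 0.0674 to 0.106 CPM at these depths.

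Levels of different genes were compared per kilobase of annotated exon. In unstimulated DCs *Clec4n* (1005 ± 59.4 CPM per kilobase, SD, n = 3) was followed by *Clec7a* (441 ± 49.6). *Clec4d* (70.6 ± 11) and *Mrc1* (63.9 ± 8.34) overlapped, and then came *Clec4a2* (45.6 ± 4.88). *Clec4e* (22.2 ± 5.40) and *Clec5a* (19.7 ± 2.94) also overlapped, and *Clec12a* (11.4 ± 3.59), *Clec10a* (4.75 ± 0.958) and *Cd209a* (0.126 ± 0.0882) were lowest. The 2 Dectins thus gave most of the receptor transcript in resting cells.

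With LPS the order changed at its upper end. *Clec4n* (610 ± 77.9 CPM per kilobase, SD, n = 3) stayed first, and *Clec7a* (300 ± 23.7) and *Clec4e* (263 ± 34.4) overlapped below it. *Clec4d* (161 ± 26.8) was next, above *Mrc1* (25.4 ± 4.59). *Clec5a* (19.3 ± 1.2), *Clec4a2* (16.4 ± 3.08) and *Clec12a* (11.6 ± 3.81) overlapped each with the next, and *Clec10a* (0.573 ± 0.110) and *Cd209a* (0.00647 ± 0.0112) were last. In IFN-β-treated DCs *Clec4n* (878 ± 79.9) and *Clec7a* (553 ± 29.5) led. There *Clec4d* (83.5 ± 12.3) and *Clec4e* (80.0 ± 17.5) overlapped, followed by *Mrc1* (53.6 ± 3.94), *Clec4a2* (35.1 ± 3.48), *Clec5a* (24.0 ± 2.39), *Clec12a* (14.97 ± 3.40), *Clec10a* (2.76 ± 0.738) and *Cd209a* (0.0282 ± 0.0368). The order depends on the gene length used. For *Clec12a* all annotated exons together hold 5528 bases and the longest transcript 3233. With the longest transcript as length, *Clec12a* came above *Clec5a* with IFN-β.

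Summed over the 10 receptors, the level was 1685 ± 18.5 CPM per kilobase in unstimulated, 1407 ± 81.8 (SD, n = 3) in LPS-activated and 1725 ± 52.5 in IFN-β-treated cells. Of this sum *Clec4e* made up 1.32% without stimulation, 18.6% after LPS and 4.62% after IFN-β. The share of *Clec4d* went from 4.18% to 11.5% with LPS and was 4.85% with IFN-β. *Clec4n* held 59.7%, 43.3% and 50.8% in the 3 conditions, and *Clec7a* 26.2%, 21.4% and 32.1%. The level of *Clec4e* differed more between conditions than the sum did.

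**Figure D4:**
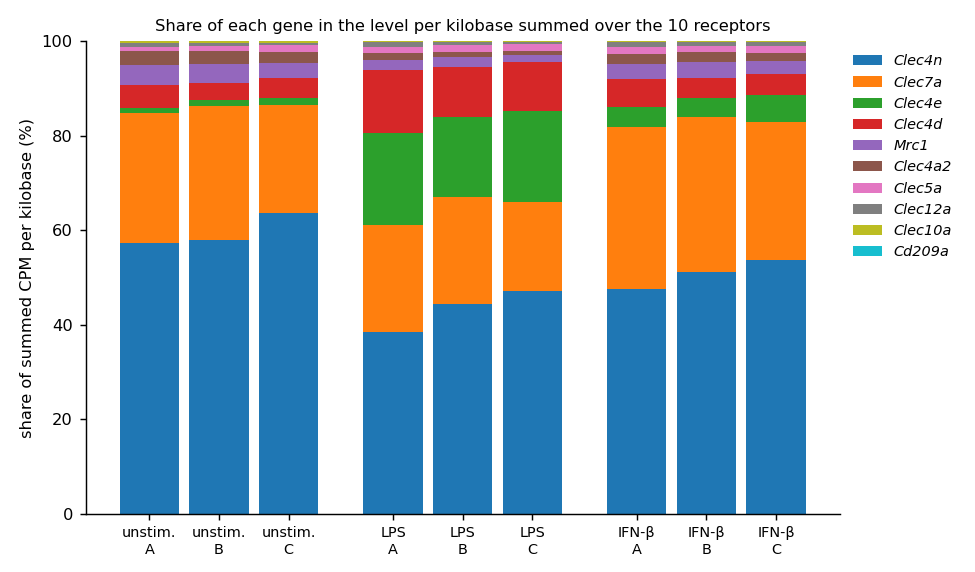
Share of each gene in the CPM per kilobase summed over the 10 receptors (vertical axis, percent) in each of the 9 libraries. *Clec4e* and *Clec4d* widen in the LPS libraries, where their mean shares are 18.6% and 11.5%.

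The signalling genes downstream of these receptors were described with a list of 22, all of them tested. LPS changed 20 of the 22, 14 upward and 6 downward, with a median log2 fold change of 0.70. IFN-β changed 17, 15 upward and 2 downward, with a median of 0.36. For all tested genes the medians were -0.04 and -0.02 and the shares called 68.2% and 46.9%. Between the stimuli 15 differed, 5 higher and 10 lower with IFN-β, where 49.1% of all genes did (25.8% higher and 23.3% lower), with a median of -0.18, against 0.02 for all genes.

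The adaptors of the activating receptors differed. *Fcer1g*, the adaptor of *Clec4n*, *Clec4d* and *Clec4e*, was 1.18 ± 0.08 SE higher on the log2 scale with LPS (adjusted p = 4.39e-07, edgeR) and 0.50 ± 0.08 SE higher with IFN-β (adjusted p = 0.000626, edgeR). *Tyrobp*, the adaptor of *Clec5a*, was -0.43 ± 0.12 SE with LPS (adjusted p = 0.00730, edgeR) and -0.17 ± 0.12 SE with IFN-β, which did not pass the test (adjusted p = 0.279, edgeR). The kinase gene *Syk* rose with LPS by 0.91 ± 0.08 SE (adjusted p = 2.05e-06, edgeR) and with IFN-β by 0.36 ± 0.08 SE (adjusted p = 0.00349, edgeR).

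Among the largest rises of the list with LPS were those of the adaptor gene *Blnk* (2.07) and of *Malt1* (1.89), which encodes the protease of the CARD9, BCL10 and MALT1 complex. The largest falls were those of *Inpp5d* (-1.83), which encodes the inhibitory phosphatase SHIP1, *Card9* (-1.39) and *Fgr* (-1.30). With IFN-β *Lyn* (0.92) and *Ptpn6* (0.84) were among the largest rises, and *Card9* (-0.66) and *Fgr* (-0.28) fell. *Card9* and *Malt1*, which act in 1 complex, thus had opposite signs in each comparison with unstimulated DCs, as *Malt1* was 0.63 with IFN-β. Between the stimuli, *Inpp5d* (1.65), *Fgr* (1.02) and *Card9* (0.73) were higher with IFN-β, and *Blnk* (-1.57), *Malt1* (-1.26) and *Src* (-1.09) were lower.

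Of 38 other C-type lectin genes listed, 22 were tested. LPS changed 19, 8 upward and 11 downward, where 68.2% of all tested genes changed, and the median was -0.78, against -0.04 for all genes. IFN-β changed 10, 8 upward and 2 downward, a share close to the 46.9% of all genes, with a median of 0.42, against -0.02 for all. Between the stimuli 14 differed, 10 of them higher with IFN-β, where 49.1% of all genes differed (25.8% higher and 23.3% lower), with a median of 0.76, against 0.02 for all. With the letter as a block these counts were 19, 14 and 18, where 73.5%, 56.3% and 58.0% of all tested genes passed. With LPS the largest rises were of *Cd69* (6.52), *Ly75* (2.24) and *Cd72* (2.22), and the largest falls of *Cd209c* (-2.69), *Clec4b1* (-1.97) and *Clec1a* (-1.95). With IFN-β they were of *Cd69* (4.43), *Pla2r1* (2.98) and *Cd72* (1.19), and of *Cd209c* (-2.08) and *Clec4b1* (-0.55). *Cd209c* rested on few counts, 17, 11 and 53 in unstimulated, 3, 5 and 1 in LPS-activated and 6, 5 and 6 in IFN-β-treated libraries. Without unstimulated library C its LPS value was -1.80 and its IFN-β value -1.18, which was not called (adjusted p = 0.0742, edgeR), and that call was also lost without IFN-β library A or B (adjusted p = 0.0528 in both). The IFN-β call of *Cd72* was lost without any 1 of 7 libraries, its value falling to 0.69 without IFN-β library A (adjusted p = 0.233, edgeR). *Pla2r1* with IFN-β was 2.36 without IFN-β library A and 3.66 without unstimulated library A. Between the stimuli *Clec9a* (2.48), *Clec1a* (2.15) and *Clec1b* (2.08) were higher with IFN-β, and *Cd69* (-2.09), *Olr1* (-1.39) and *Ly75* (-1.35) were lower.

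Of the 10 receptor genes 7 lie on chromosome 6, in 3 places. *Clec4a2*, *Clec4n*, *Clec4d* and *Clec4e* share 1 stretch, *Clec12a* and *Clec7a* another, and *Clec5a* stands apart at 40574894 to 40585821. Within 250 kb on either side, the *Clec4* stretch held 21 genes, of which 10 were tested and 9 changed with LPS, 4 upward and 5 downward, where 68.2% of all tested genes changed. In the order of the tested genes, those that rose lay toward both ends and those that fell lay between them. *Clec4a1* (1.37) was higher with LPS, and *Clec4a3* (-0.97), *Clec4a4* (-1.24) and *Clec4b1* (-1.97) were lower. So were *Clec4a2* and *Clec4n*, before *Clec4d* and *Clec4e*, the last of the tested genes. Untested genes of the stretch lie beyond these. With IFN-β 4 of the 10 changed, where 46.9% of all genes did, and *Clec4e* had the largest value of these. With the letter as a block 8 of the 10 changed with IFN-β, 5 higher and 3 lower, where 56.3% of all genes did.

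The stretch with *Clec12a* and *Clec7a* held 32 genes, of which 15 were tested. LPS changed 12 of these, 6 in each direction, where 68.2% of all tested genes changed (32.8% higher and 35.4% lower). IFN-β changed 10, 9 of them upward, where 46.9% of all genes changed and 23.6% were higher. Between *Clec12a* and *Clec7a*, the lectin genes *Clec1b* (-1.38 with LPS and 0.70 with IFN-β) and *Clec9a* (-1.75 and 0.73) had opposite calls for the stimuli, as *Clec7a* did. *Clec1a*, a lectin gene also between them, fell with LPS (-1.95) and was not called with IFN-β (0.20, adjusted p = 0.383, edgeR). The annotated ranges of *Clec1b* and *Clec9a* overlap on the plus strand, and whether their counts are independent was not tested. *Olr1*, on the other side of *Clec7a*, rose with both (2.02 and 0.64). The IFN-β call of *Clec1b* was lost without IFN-β library A or unstimulated library C (adjusted p = 0.0772 and 0.0586, edgeR), and that of *Olr1* without IFN-β library C or unstimulated library A or B (adjusted p of 0.0642 to 0.0852). These neighbours were named for their position.

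**Figure D5:**
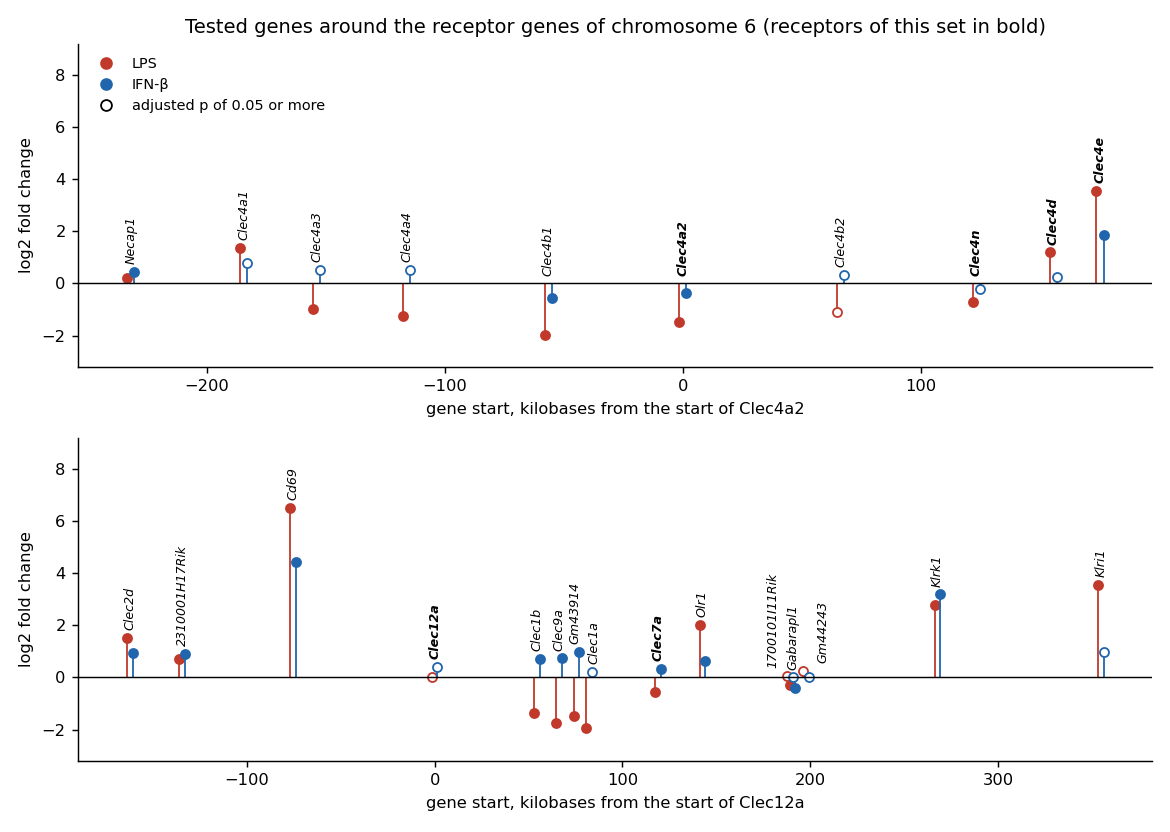
Log2 fold change (vertical axis) of the tested genes within 250 kb of the receptors on chromosome 6, against the distance of the gene's lower coordinate from that of *Clec4a2* or *Clec12a* in kilobases, in red for LPS and blue for IFN-β. Filled points passed an adjusted p of 0.05, and *Clec4d* and *Clec4e* lie above 0 at the right of the upper panel, beyond *Clec4n* below it with LPS.

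Among 8049 other genes with a mean of at least 10 CPM, those whose log2 levels followed each receptor most closely over the 9 libraries were named by Pearson's r. The libraries form 3 conditions, so r mainly describes how alike the condition means are. For *Clec4e* they were *Gpd2* and *Igbp1* (both 0.998), for *Clec10a* *Plxdc2* (0.996) and *Trib1* (0.994), and for *Clec4a2* *Cd22* and *Dpp7* (both 0.997). For *Clec7a* they were *Arhgef7* (0.995) and *Slc35f6* (0.994), for *Clec4n* *Acat1* (0.994) and *Pde4d* (0.993), for *Mrc1* *Klhl6* (0.995) and *Gpx1* (0.992), and for *Clec4d* *Septin10* (0.993) and *Tmem248* (0.990). *Clec12a* was followed less closely, by *Smpdl3a* (0.971) and *Lrpap1* (0.970), and *Clec5a* least, by *Jpt2* (0.945) and *Gm43323* (0.903).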

How the data were processed

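The authors prepared ribosome-depleted libraries, trimmed and aligned the reads (Trim Galore 0.6.0 and STAR 2.7.8a, per the labels) to GRCm38, and deposited raw counts per gene, without normalization. The strand setting of the counting is not given in the sources used here. Genes were filtered with filterByExpr, scaled with TMM factors and tested with the quasi-likelihood F-test of edgeR 4.0.16 (limma 3.58.1, R 4.3.3) over all 9 libraries, with Benjamini-Hochberg adjustment over 16260 genes. A standard error is the absolute log2 fold change over the square root of F, and single-library log2 values used a pseudocount of 0.5 CPM. On simulated data for the LPS comparison over 16260 genes the test recovered 84 of 100 genes changed 2-fold and 99 of 100 changed 4-fold, and 14 of 197 calls were unchanged genes. The simulation changed few genes, equally up and down, and had no letter effect. In the real comparison 68.2% of genes were called, so these rates may not hold there.

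After group means were subtracted, all 9 pairs of libraries with the same letter had a correlation across genes above 0.1 (0.134 to 0.546), so the letters were taken to pair the libraries. This rests on the data, since the labels do not say what the letters mark. The model without the letters was kept as the main one, and the letters entered as a block in an alternative. Every pair of replicates differed by more than sampling noise. The receptors and gene lists were chosen with earlier results of these data known. Named genes are all receptors, the 3 largest called rises and falls of each list, the 2 most alike genes per receptor, stimulation and marker genes, and values of some of these are not reported here. *Fcer1g*, *Syk*, *Tyrobp*, *Mgl2*, the IFN-β value of *Malt1* and the chromosome 6 neighbours were named for their role, sequence or position after values were seen. Coordinates are from GENCODE M21 and promoters from RefSeq (GRCm38.p6).

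The alternatives were DESeq2 1.42.0, scaling by library size or upper quartile, no filter, at least 10 counts in every library, the 2 compared groups alone, the block, an adjusted p under 0.01, a change of 1 or more on the log2 scale beside the main threshold, and each library left out. For the order of receptors per kilobase, the longest transcript was also used as gene length.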

Additional observations from a re-analysis of the deposited data

How the results depend on the processing

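Of 432 values of the 9 tested receptors under alternatives, 394 kept their direction and side of the threshold, 13 lost and 15 gained a call, and 10 changed sign. The letters as a replicate block raised the receptors called for IFN-β from 4 to 9, and it changed no call of a receptor beyond those given beside the results. Leaving out 1 library gave 2 to 4 receptors for IFN-β, with 2 without IFN-β library B. With an adjusted p under 0.01 IFN-β changed 2 receptors and 5 other lectin genes. With a change of 1 or more on the log2 scale also required, IFN-β changed 1 receptor, 1 signalling gene and 4 other lectin genes. LPS then changed 10 signalling genes, and 4 receptors and 5 signalling genes differed between the stimuli. The shares of all tested genes past these stricter thresholds were not counted, so these counts describe the listed genes only.

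Scaling by library size only moved the median of all genes to -0.62 with LPS, -0.32 with IFN-β and 0.29 between the stimuli. The share of calls that were higher became 21.9%, 22.3% and 77.9%, from 48.1%, 50.3% and 52.5%. It turned *Clec4d* (-0.062) and *Clec5a* (-0.023) with IFN-β and *Clec12a* with LPS (-0.56), whose value was -0.066 with upper-quartile factors. It also gave calls for *Clec4n* (-0.50) and *Mrc1* (-0.56) with IFN-β. *Clec5a* with LPS was 0.013 with DESeq2 and ran from -0.14 to 0.081 when 1 library was left out, and *Clec12a* with LPS ran from -0.27 to 0.29. Apart from the scaling by library size, the cause of these changes was not tested. Without a filter on low counts, *Cd209a* was called lower with LPS (adjusted p = 0.00307, edgeR) and was not called with IFN-β (adjusted p = 0.0504). The depth limits *Cd209a* and *Clec10a* with LPS most.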
